A study of Mus musculus with 24 samples.

Results

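The step from neuronal progenitors (NP) to terminal neurons (TN) in mouse cells labelled as REST knock-out (RESTko) was measured on 6 of the 24 arrays of the study, 3 TN arrays against 3 NP arrays, lettered a, b and c within each stage. The 6 arrays were chosen by their titles. They belong to the 18 arrays of the larger of 2 Affymetrix platforms, on which 19938 genes were represented by a probe set with a single symbol. All 18 came from cells of the strain Black Agouti 129, and the other groups on that platform were embryonic stem (ES) cells labelled RESTko or RESTwt (wildtype), NP labelled RESTwt and TN labelled RESThet (1 REST allele knocked out), with 3 arrays each. The same step in cells that carry REST can therefore only be formed as TN RESThet minus NP RESTwt, along which the genotype label changes. The remaining 6 arrays, on the other platform, hold wildtype cells whose strain is labelled as mixed, 129Sv-C57Bl/6, with 2 arrays at each stage. The ES and NP titles of the 18 arrays begin with 1 and the TN titles with 2. The labels do not say what this number stands for, and whatever it marks cannot be told apart from the stage.

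REST is a zinc finger repressor that binds the RE1 element beside many neuronal genes and recruits the corepressors RCOR1 and SIN3A, which keeps those genes low in stem cells and non-neuronal tissues. In the differentiation used here, ES cells are aggregated and treated with retinoic acid, which yields dividing progenitors resembling the radial glia of the embryonic neural tube. After dissociation and plating these stop dividing and mature into neurons. REST normally declines along the way, and its targets rise as it does.

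The values are log2 signals of probe sets as deposited, each measured on 3 arrays a group and given in the order a, b and c. A gene was called at an adjusted p under 0.05 in limma, and differences are TN minus NP on the log2 scale with their standard error (SE). The labels speak of biological replicates without saying whether these were separate cultures, so the p-values measure only the spread between these arrays. Because the RNA came from whole cultures, fewer cells of a type and less RNA per cell cannot be told apart. Pearson's r across genes lay between 0.9953 and 0.9971 for pairs of NP arrays, between 0.9955 and 0.9961 for pairs of TN arrays, and between 0.872 and 0.898 for pairs from different stages. The lower quartile of the gene signals was 3.75 to 3.80 on the NP and 3.94 to 4.09 on the TN arrays, so the deposited values place dim genes slightly higher at TN.

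The Rest probe set (chr5:77265494-77286432, GRCm38.p6) did not follow the genotype labels. It read 7.43, 7.40 and 7.57 on the NP and 7.28, 7.38 and 7.46 on the TN arrays labelled RESTko, a difference of −0.10 (SE 0.07, adjusted p = 0.219). With each array centred on its median this became −0.20 (adjusted p = 0.0205), and after quantile normalization −0.19 (adjusted p = 0.0264). The NP arrays labelled RESTwt averaged 7.48 ± 0.03 (SD, n = 3), the same level as NP RESTko, and the TN arrays labelled RESThet 7.03 ± 0.03, below those labelled RESTko by 0.34 (SE 0.07, adjusted p = 0.0187 in limma), so at TN the signal was higher in the arrays labelled as knock-out. The labels do not give the deleted part of the gene, and whether these probes lie inside it is not known, so the groups are called by their labels throughout, and RESTko and REST-carrying describe labels, not measured REST. In the mixed-strain wildtype, Rest fell by 2.79 between NP and TN on the other platform.

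Progenitors and neurons labelled RESTko differed over most of the transcriptome. Of 19938 genes, 14147 (71.0%) were called, 8328 higher (41.8%) and 5819 lower (29.2%) at TN. At least 2-fold changes were called for 4430 genes (22.2%), 2544 higher (12.8%) and 1886 lower (9.46%), and in 14742 genes (73.9%) the 3 TN arrays did not overlap the 3 NP arrays. The excess of rising genes depended on the scaling: 58.9% of calls were higher with the deposited values, 50.6% after median centring, 45.3% after quantile normalization and 50% without the dimmest 30% of genes. The median difference over all genes moved with it, from 0.127 to 0.022, −0.051 and −0.005. The counts for gene groups below are read against these shares, since a called gene is by itself no rarity in this comparison.

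The largest difference in deposited signal was that of Slc17a6 (chr7:51621830-51671126, GRCm38.p6), which encodes the vesicular glutamate transporter VGLUT2. It read 2.85, 2.87 and 2.89 at NP and 9.57, 10.07 and 9.66 at TN. The stages were far apart on every array, with a difference of 6.90 (SE 0.17, adjusted p = 3.49e-16), or 119-fold in deposited signal. The NP signals lie below the lower quartile of the arrays and no detection calls were used, so for genes that start or end this low, whether the dim signal is above background is not known, and folds and their order are those of the deposited signals. The other vesicular glutamate transporters in the list of glutamatergic genes were not called: Slc17a7 was at 4.26, 4.10 and 4.10 at NP and 3.94, 4.0 and 4.29 at TN, and Slc17a8 had a difference of 0.17 (adjusted p = 0.206).

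Receptors for glutamate rose with the transporter. Of 33 measured genes of glutamate transmission, 29 rose, 26 of them at least 2-fold, and 1 fell, with a median difference of 2.84 against 0.127 for all genes. The metabotropic receptor gene Grm3 read 3.55, 3.53 and 3.74 at NP and 10.04, 9.52 and 9.72 at TN (71.2-fold). Grm5 rose 56.8-fold and Grm7 52.4-fold, both from signals near 4 log2 units or below. Among ionotropic subunits, Gria4 of the AMPA receptor went from 5.49, 4.98 and 5.06 to 10.43, 10.43 and 10.49, and no array of one stage came near those of the other. Grin2b of the NMDA receptor rose by 5.34 and Grik1 of the kainate receptor by 5.46. The member that fell was Grm2, by 1.34 (adjusted p = 2.28e-07), named because it was the exception.

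Inhibitory transmission rose as well. Of 23 measured genes for GABA and glycine transmission, 21 rose (20 at least 2-fold), with a median of 2.82. With the deposited values none fell after adjustment or at an unadjusted p under 0.05. After quantile normalization 20 rose and 2 fell, and after median centring 20 rose and 1 fell. Gabra2, a GABA-A receptor subunit, read 2.98, 2.73 and 2.92 at NP and 8.37, 8.12 and 8.01 at TN (39.2-fold, adjusted p = 1.62e-17). Gabra5 rose 33.4-fold, the metabotropic subunit Gabbr2 31.0-fold and the glycine receptor subunit Glra3 28.2-fold. The enzymes that make GABA rose by less. Gad1 read 7.48, 6.99 and 7.31 at NP and 9.75, 9.42 and 9.79 at TN (2.40, SE 0.17), and Gad2 rose by 2.05 (SE 0.25).

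Voltage-gated channels had the highest list median with the deposited values and after median centring (2.89), whereas after quantile normalization the GABA and glycine list was higher (2.89 against 2.83). Of 37 measured, 35 rose, all at least 2-fold, and 1 fell, with a median of 3.0. The potassium channel Kcnd2 read 4.85, 4.47 and 4.30 at NP and 10.19, 10.16 and 10.12 at TN (49.2-fold). The sodium channel Scn1a rose 39.0-fold, the calcium channel Cacna1e 27.6-fold and the potassium channel Kcna4 25.3-fold, and in each the groups were separated by several log2 units. Cacnb2, a calcium channel beta subunit named as the exception, fell by 0.39 (adjusted p = 0.00785). Outside the list, the potassium leak channel Kcnk9 was among the 12 strongest rises, with 5.07, 4.68 and 4.81 at NP and 11.47, 10.86 and 10.81 at TN (73.0-fold).

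The release machinery followed. Of 38 measured genes of synaptic vesicles and their release, 36 rose (34 at least 2-fold) and 1 fell, with a median of 2.56, and the mean over members was 6.23 to 6.45 on the NP and 8.75 to 8.90 on the TN arrays. The vesicle protein Sv2c read 4.51, 3.75 and 3.85 at NP and 9.96, 9.55 and 9.47 at TN (49.3-fold). Amph, an endocytic adaptor, rose 28.9-fold, Sv2a, another vesicle glycoprotein, 20.8-fold, and Syn2, a synapsin, by 4.64 on the log2 scale. The calcium sensor Syt1 was higher on NP array a (8.37) than on b and c (7.48 and 7.44), and at TN it read 11.27, 11.03 and 10.97. The difference of 3.33 (SE 0.27, adjusted p = 2.54e-09) was well beyond that spread. Snap25, a SNARE of the presynaptic membrane, rose by 2.99, Syp, the vesicle protein synaptophysin, by 3.24, and Syn1 by 2.34. The member that fell was the priming factor Unc13b, by 0.98 (adjusted p = 4.63e-07).

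Peptide secretion rose in part. Of 29 measured genes of dense-core granules and neuropeptides, 21 rose (18 at least 2-fold) and 8 were not called, with a median of 1.34; after quantile normalization 21 rose and 5 fell. Nxph1, a secreted ligand of neurexins, read 3.79, 3.95 and 3.87 at NP and 7.79, 7.90 and 7.84 at TN (15.7-fold). The granin Scg2 rose 14.5-fold and the enkephalin precursor Penk 14.1-fold. Tac1, the precursor of substance P, went from 2.37, 2.53 and 2.41 to 5.45, 6.49 and 5.09, with TN array b above the others and no overlap between the stages (9.45-fold). Scg3, another granin, was already at 9.60, 9.41 and 9.41 in progenitors and rose by only 0.83, to 10.52, 10.23 and 10.18.

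**Figure D1:**
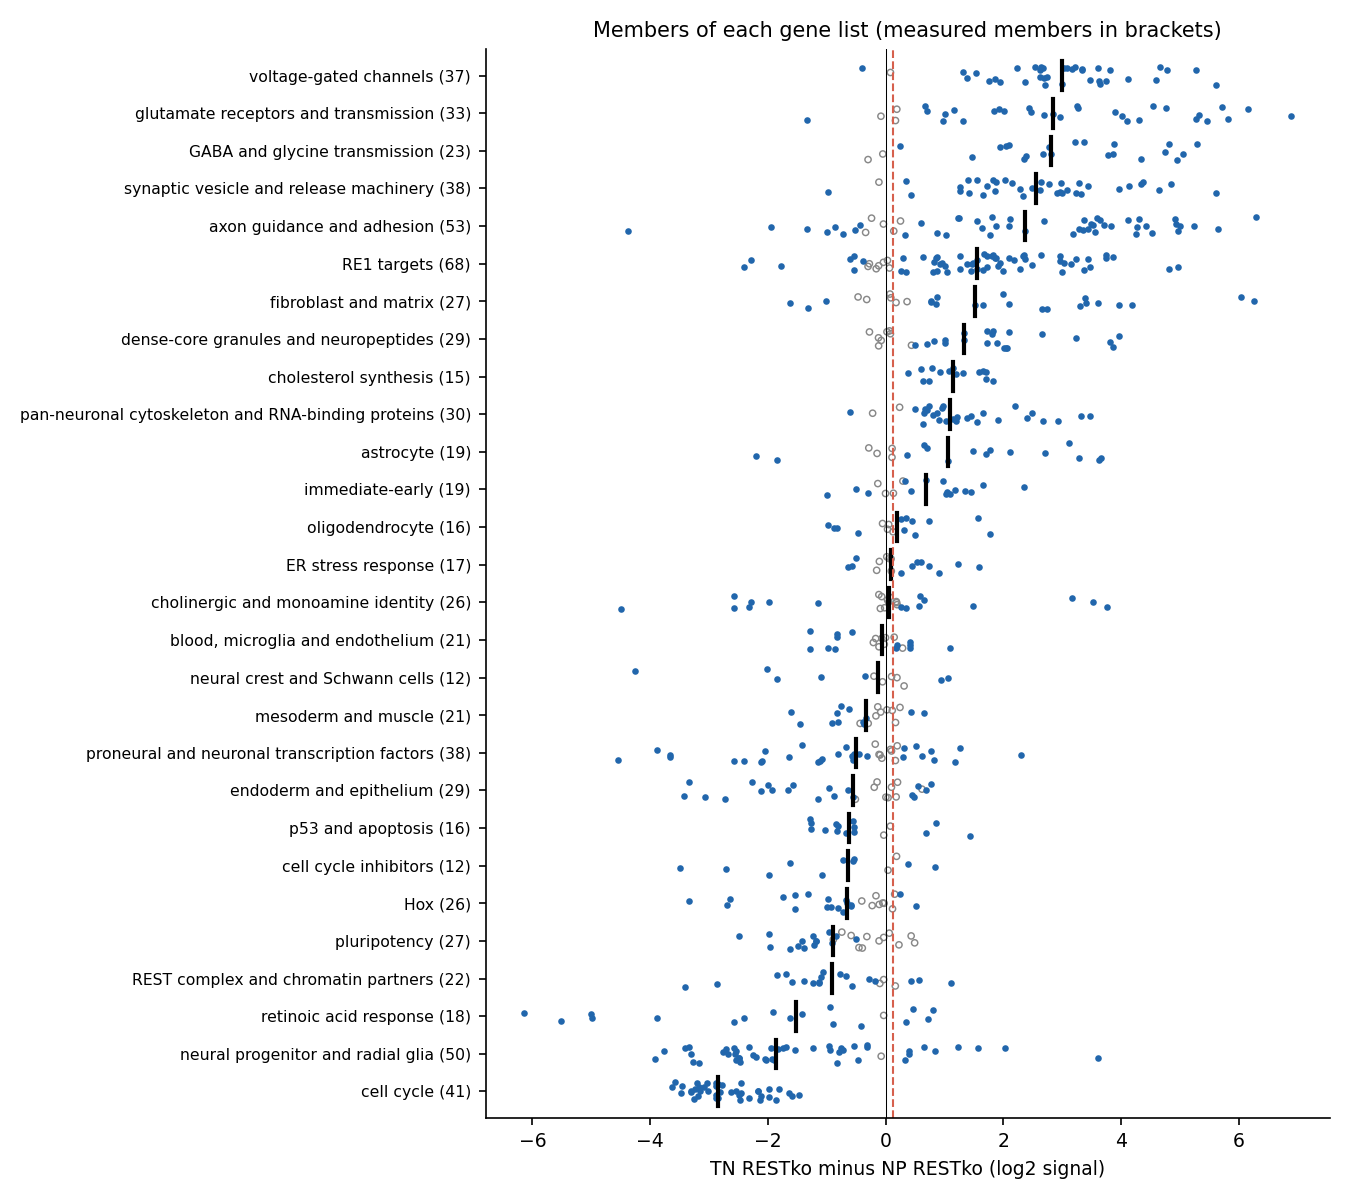
Difference TN RESTko minus NP RESTko (log2 signal, horizontal axis) for every measured member of 28 gene lists (rows, number of measured members in brackets); filled points were called at an adjusted p under 0.05, open points were not, black bars are list medians and the dashed line is the median of all genes. The lists run from voltage-gated channels (median 3.0) at the top to the cell cycle (median −2.84) at the bottom.

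Genes that mark neurons from birth on changed less than the synaptic ones. Of 30 pan-neuronal cytoskeletal and RNA-binding genes, 27 rose, 16 of them at least 2-fold, and 1 fell, with a median of 1.09. The array means of the list were 8.40 to 8.76 at NP and 9.83 to 9.89 at TN. Tubb3, the neuronal beta-tubulin, read 10.06, 9.65 and 9.76 at NP and 10.68, 10.69 and 10.56 at TN. These groups did not overlap, but the difference was only 0.82 (SE 0.12) and was no longer called when a difference beyond 1.5-fold was required (adjusted p = 0.114). Map2, of dendritic microtubules, rose by 1.38, the neuronal nuclear splicing factor Rbfox3 (NeuN) by 1.66 and Stmn2, a stathmin of growth cones, by 1.56. Larger steps were those of Rbfox1 (3.48), the axonal protein tau, Mapt (3.33), Stmn4 (2.93) and Tubb2a (2.67). The neurofilament gene Nefm, the exception, fell by 0.60 (adjusted p = 0.00936) from 9.06, 9.15 and 9.19 to 8.85, 8.48 and 8.25; it was not called without TN array c. In the 23 members that are not also on the RE1 list described below, 21 rose and none fell with the deposited values. This held at an unadjusted p under 0.05 as well.

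Guidance and adhesion genes split by member. Of 53 measured, 40 rose (37 at least 2-fold) and 8 fell, with a median of 2.37. Ncam2, a cell adhesion molecule of axons, read 4.33, 3.43 and 3.63 at NP and 10.22, 10.05 and 10.03 at TN (79.0-fold). Dscam rose 50.4-fold, Cntn1 37.8-fold and Cntn6 32.0-fold, all adhesion molecules of the immunoglobulin family. The largest fall was that of Robo3, a guidance receptor of commissural axons before they cross the midline, from 8.83, 8.36 and 8.39 to 4.15, 4.07 and 4.21 (20.9-fold). Other strong rises outside the lists were the serotonin receptor Htr2c (76.3-fold), Dpp10, an auxiliary protein of potassium channels (75.9-fold), the protocadherin Pcdh11x (65.3-fold), Vstm2a (59.1-fold) and the neuronal calcium sensor Vsnl1 (57.0-fold). All 5 had NP signals below 5 on every array and TN signals above 8.

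Identity genes of cholinergic and monoaminergic neurons showed no common direction: of 26 measured, 9 rose and 7 fell, 10 were not called, and the median was 0.06, which is −0.10 after quantile normalization. Nicotinic receptor genes of the Chrna5, Chrna3 and Chrnb4 cluster fell together. Chrna3 read 8.41, 8.26 and 8.45 at NP and 4.24, 3.82 and 3.60 at TN (22.4-fold lower), Chrnb4 fell by 2.58 and Chrna5 by 2.58. The muscarinic receptor genes Chrm2 and Chrm3 went the other way, 13.6-fold and 11.5-fold higher, as did Ache, the acetylcholine esterase (8.99-fold). Th, which makes the dopamine precursor, fell by 2.29.

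**Figure D2:**
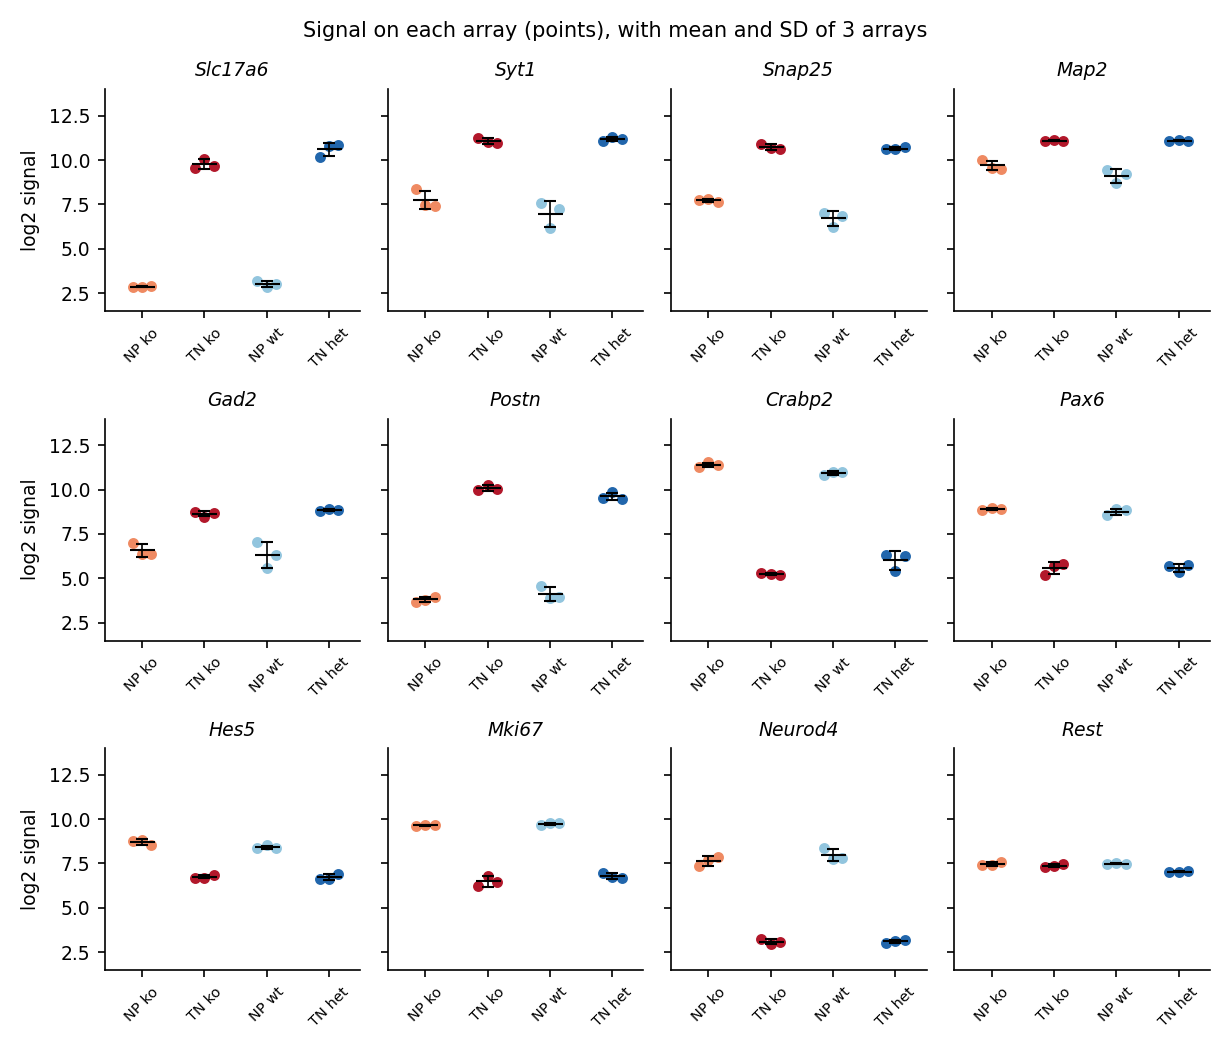
Log2 signal of 12 genes on each array (points), with the mean and SD of 3 arrays, for NP and TN labelled RESTko and for NP RESTwt and TN RESThet. Slc17a6 and Postn start near the dim end in NP RESTko and reach about 10 in TN RESTko, Crabp2, Pax6, Mki67 and Neurod4 are lower on every TN RESTko array than on any NP RESTko array, and Rest stays between 7.28 and 7.57 in both RESTko groups.

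Genes of the retinoic acid response fell between the stages. Of 18 measured genes, 13 fell, 10 of them at least 2-fold, and 4 rose, with a median of −1.52. Crabp2 (chr3:87948693-87953372), a carrier that delivers retinoic acid to its nuclear receptors, read 11.25, 11.53 and 11.36 at NP and 5.29, 5.23 and 5.19 at TN. That 70.8-fold difference was the largest fall among the genes eligible for naming. Cyp26a1 and Cyp26b1, which degrade retinoic acid, fell 45.6-fold and 31.8-fold, and Stra8, a retinoic acid induced gene of germ cells, 32.2-fold. Cyp26a1 was 10.84, 9.73 and 9.95 at NP and 4.47, 5.0 and 4.52 at TN, and its lowest NP array was still 4 log2 units above its highest TN array. The short-chain dehydrogenase Dhrs3 fell 14.8-fold and the receptor gene Rarb 5.29-fold. In ES RESTko cells Crabp2 was at 6.31, Cyp26a1 at 4.37 and Cyp26b1 at 4.97 (means of 3 arrays), so the progenitor level was the peak of the 3 stages for these genes.

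Hox genes, which retinoic acid induces in neural tissue, fell more moderately. Of 26 measured, 16 fell (7 at least 2-fold), 2 rose and 8 were not called, with a median of −0.66. Hoxb9 fell 10.2-fold, Hoxb2 6.44-fold, Hoxd4 6.23-fold and Hoxa3 3.35-fold. With the deposited values the exceptions were Hoxb7, which rose by 0.51 (adjusted p = 0.00911 in limma), and Hoxa5, by 0.25 (adjusted p = 0.0364). After median centring 1 member rose and 18 fell, and after quantile normalization 2 rose and 20 fell. Hoxa5 had 10.69, 10.48 and 10.40 at NP and 10.71, 10.86 and 10.76 at TN.

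All 41 measured genes of the cell cycle fell at least 2-fold, with differences between −3.63 and −1.47 and a median of −2.84. The mean over the list was 8.78 to 9.01 on the NP arrays and 5.97 to 6.48 on the TN arrays. Mki67, the proliferation marker Ki-67, read 9.61, 9.69 and 9.65 at NP and 6.21, 6.80 and 6.45 at TN (8.93-fold). Rrm2, a subunit of ribonucleotide reductase, fell 12.4-fold, the mitotic checkpoint kinases Bub1b and Ttk 11.9-fold and 11.1-fold, and the replication helicase subunit Mcm7 11.1-fold. In all 4, TN array b was the brightest of its group. The replication-dependent histone H2ac4 fell 44.2-fold, from 8.88, 8.77 and 8.81 to 3.42, 3.30 and 3.33. Cell cycle inhibitors did not move the opposite way: of 12 measured, 8 fell (5 at least 2-fold), 2 rose and the median was −0.63. Gadd45g fell 11.3-fold, Cdkn1c (p57) 6.55-fold, Rbl1 3.96-fold and Btg2 3.08-fold, while the exceptions Rbl2 and Cdkn2d rose by 0.85 and 0.38.

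The progenitor programme fell with proliferation. Of 50 genes of neural progenitors and radial glia, 40 fell, 30 of them at least 2-fold, and 9 rose, with a median of −1.86. Pax6, a transcription factor of dorsal progenitors, read 8.86, 8.95 and 8.91 at NP and 5.19, 5.72 and 5.80 at TN (10.1-fold). Nes, the intermediate filament nestin, fell 9.87-fold, from 9.17, 9.29 and 9.08 to 5.64, 6.12 and 5.87. The Notch effector Hes5 fell 3.83-fold, and the groups did not overlap in any of these 3. Igf2bp1, an RNA-binding protein of embryonic tissue, fell by 3.91 on the log2 scale, Id3, an inhibitor of bHLH factors, by 3.76, and the Hippo pathway factor Tead2 by 3.40. Among the members that rose were Ptprz1 (12.2-fold), Id4 (4.08-fold), Olig2 (2.97-fold) and Fabp7 (2.35-fold). Ptprz1 and Fabp7 are also expressed by glia.

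Transcription factors that drive neurogenesis fell too, although the neurons' own genes rose. Of 38 proneural and neuronal transcription factors, 21 fell, 14 of them at least 2-fold, 9 rose, and the median was −0.49. Neurod4, a bHLH factor of cells leaving the cycle, read 7.34, 7.72 and 7.86 at NP and 3.23, 2.99 and 3.09 at TN (23.2-fold). Nhlh1 fell 14.7-fold, Neurod1 12.7-fold and Neurog1 12.6-fold, with no overlap between the stages. The largest rise was that of Myt1l, a zinc finger factor of mature neurons, by 2.30, although NP array a (7.73) was well above b and c (6.56 and 6.67). Patterning genes of the dorsal neural tube fell as well: Wnt1 24.5-fold, Olig3 22.8-fold and the roof-plate and crest factor Pax3 19.1-fold. Further strong falls were those of Fndc3c1 (31.6-fold), the carboxypeptidase Cpm (28.2-fold), Serpinb9e (26.2-fold) and the carbonic anhydrase Car14 (25.1-fold).

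Markers of cells other than neurons moved along the step. Of 27 genes of fibroblasts and matrix, 18 rose (14 at least 2-fold) and 3 fell, the median was 1.53, and the list mean went from 5.75 to 6.14 on the NP arrays to 7.58 to 7.71 on the TN arrays. Postn, a matrix protein of mesenchyme, read 3.70, 3.79 and 3.96 at NP and 9.97, 10.27 and 10.03 at TN (77.2-fold), and Dcn, the proteoglycan decorin, 4.66, 4.58 and 4.69 at NP and 10.45, 10.77 and 10.85 at TN (66.2-fold). Lum rose 18.3-fold, Col6a3 15.6-fold and Col1a1 6.33-fold. Of 19 astrocyte genes, 13 rose (10 at least 2-fold) and 2 fell, with a median of 1.05 and list means of 6.33 to 6.36 at NP and 7.26 to 7.69 at TN. Atp1b2 rose 12.7-fold, Aldoc 12.4-fold and Aldh1l1 8.64-fold, while Gja1 and Fgfr3, the exceptions, fell by 1.84 and 2.19. Gfap, the astrocyte filament, read 3.53, 3.6 and 3.63 at NP and 6.04, 7.49 and 7.07 at TN, so TN array a was the lowest and still clear of every NP array. The part of these cells in the rises described above was not tested.

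Other lineages were at lower levels or declined. Of 16 oligodendrocyte genes, 8 rose and 4 fell with a median of 0.19, but after quantile normalization 5 rose and 6 fell. The lineage factors Olig1 and Olig2 rose by 1.77 and 1.57, and Ugt8a and Myrf, of myelin formation, fell by 0.98 and 0.87. Of 29 endoderm and epithelium genes, 15 fell (11 at least 2-fold) and 5 rose, with list means of 6.86 to 7.05 at NP and 5.87 to 6.28 at TN. The keratins Krt19, Krt18 and Krt8 fell 10.8-fold, 8.40-fold and 6.65-fold and the tight junction gene Cldn6 10.2-fold. Of 27 pluripotency genes, 15 fell (11 at least 2-fold) and none rose at an adjusted or unadjusted p under 0.05. Sox2, which progenitors share, fell 5.63-fold and Sall4 3.97-fold. Pou5f1 (Oct4) varied between arrays of a stage, with 6.06, 7.65 and 7.45 at NP and 5.47, 7.17 and 5.86 at TN. Its groups overlapped and it was not called (adjusted p = 0.121). Of 21 mesoderm and muscle genes, 10 fell and 2 rose, with Tagln 3.05-fold and Gata2 2.74-fold lower and Hand1 and Kdr down by 0.91 and 0.83. Of 12 neural crest and Schwann cell genes, 5 fell and 2 rose, with Ednrb 4.06-fold, Erbb3 3.58-fold and Foxd3 2.14-fold lower. Blood, microglia and endothelium genes stayed dim, with list means of 4.35 to 4.60 at NP and 4.25 to 4.31 at TN. Of these 21, 6 rose and 7 fell, or 3 and 12 after quantile normalization, with Cdh5, Pecam1 and Tie1 of endothelium lower by 1.29, 1.28 and 0.98 and C1qa of microglia higher by 1.09.

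Metabolic and stress programmes shifted in smaller steps, except that the endoplasmic reticulum stress list showed no common direction. All 15 measured cholesterol synthesis genes rose, 9 of them at least 2-fold, with differences of 0.38 to 1.82 and a median of 1.15. Nsdhl read 8.44, 8.48 and 8.53 at NP and 10.41, 10.35 and 10.16 at TN (3.54-fold), and Sqle, Dhcr7 and Sc5d, also enzymes of the pathway, rose 3.27-fold, 3.25-fold and 3.16-fold. Of 19 immediate-early genes, which neuronal activity induces, 12 rose (8 at least 2-fold) and 3 fell, with a median of 0.69; after quantile normalization 10 rose and 4 fell. Npas4 read 4.30, 4.51 and 4.68 at NP and 8.08, 6.20 and 6.29 at TN, and Fos 5.61, 5.54 and 5.78 at NP and 7.96, 6.76 and 6.57 at TN. Both were highest on TN array a and had no overlap between the stages. Nr4a3 rose 3.17-fold and Nptx2 2.54-fold. Of 16 p53 and apoptosis genes, 11 fell and 3 rose, with a median of −0.61. The pro-apoptotic Bcl2l11, Bbc3 and Eda2r fell by 1.27 each, and the anti-apoptotic Bcl2 rose by 1.44. Of 17 genes of the endoplasmic reticulum stress response, 8 rose and 3 fell, and the median of 0.10 was near the 0.127 of all genes. After quantile normalization 8 rose and 5 fell. The largest differences were the rises of Ero1b (3.02-fold), Sel1l (2.34-fold), Ddit3 (0.90) and Xbp1 (0.74).

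Most genes of REST's partners were lower at TN than at NP in RESTko. Of 22 measured subunits and chromatin partners, Rest included, 16 fell (11 at least 2-fold) and 3 rose, with a median of −0.92. Rcor2, a paralogue of the corepressor CoREST, read 9.75, 9.61 and 9.65 at NP and 6.16, 6.32 and 6.33 at TN (10.6-fold). Ezh2, the Polycomb methyltransferase, fell 7.28-fold, and the deacetylase Hdac1 and the phosphatase Ctdsp2 fell by 1.85 and 1.69. Rcor1 fell by 1.22 and Sin3a by 1.38. In the REST-carrying step described below 17 of the 22 fell and 2 rose, with a median of −0.71. The exceptions in RESTko were Rcor3, from 5.85, 5.97 and 5.93 to 7.10, 6.94 and 7.03 (2.16-fold), Sin3b (0.57) and Ctdspl (0.43).

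Genes listed as RE1 targets mostly rose along the step, at both ends of which the cells were labelled RESTko. The list, from general knowledge, holds 72 genes, of which 68 were measured. Of the 68, 54 rose, 43 of them at least 2-fold, 7 fell and 7 were not called, with a median of 1.55. After quantile normalization 51 rose and 10 fell, and after median centring 53 rose and 9 fell. The mean over the list was 5.73 to 5.78 on the ES RESTko arrays, 6.74 to 6.87 on the NP RESTko arrays and 8.19 to 8.41 on the TN RESTko arrays. The largest rises were those of Olfm3, a secreted olfactomedin, and Glra3. Olfm3 read 3.36, 3.55 and 3.79 at NP and 8.55, 8.51 and 8.53 at TN (31.3-fold), with no overlap. Among the members that fell were the transcription factor Lhx5 (5.32-fold), Th (4.89-fold) and the stress kinase Mapk11 (3.43-fold).

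The median of the same 68 genes was higher in the step whose labels carry REST, and the comparison of both steps was tested directly as an interaction. TN RESThet minus NP RESTwt shares no array with the RESTko step, and there 56 of the 68 rose, all at least 2-fold, 5 fell, 1 of them at least 2-fold, and the median was 2.49. Of all genes, 73.1% were called in that step, 43.2% higher and 29.9% lower, and 23.9% were called with at least a 2-fold change, 14.1% higher and 9.75% lower. As in RESTko the split depended on the scaling, from 8616 higher and 5954 lower to 6236 and 7514 after median centring and 6084 and 7718 after quantile normalization. The difference of the steps, RESTko minus REST-carrying, was called for 780 genes (3.91%), 280 more positive (1.40%) and 500 more negative (2.51%) in RESTko. Of the RE1 list, 41 were more negative and none more positive; at an unadjusted p under 0.05 the counts were 51 and 0, and the median difference was −0.95 against −0.029 for all genes. In 29 of the 41 the difference was at least 2-fold, as it was in 0.913% of all genes (0.652% more negative and 0.261% more positive). The step was numerically more negative in RESTko in 60 of 68, whether a member rose less there or fell further. The differences between single arrays did not overlap between the genotypes in 8.69% of all genes. After quantile normalization 40 were more negative and after median centring 39, with none more positive in either. Over all genes, however, the share of calls that were more positive moved from 35.9% to 51.1% and 54.4% under these scalings.

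**Figure D3:**
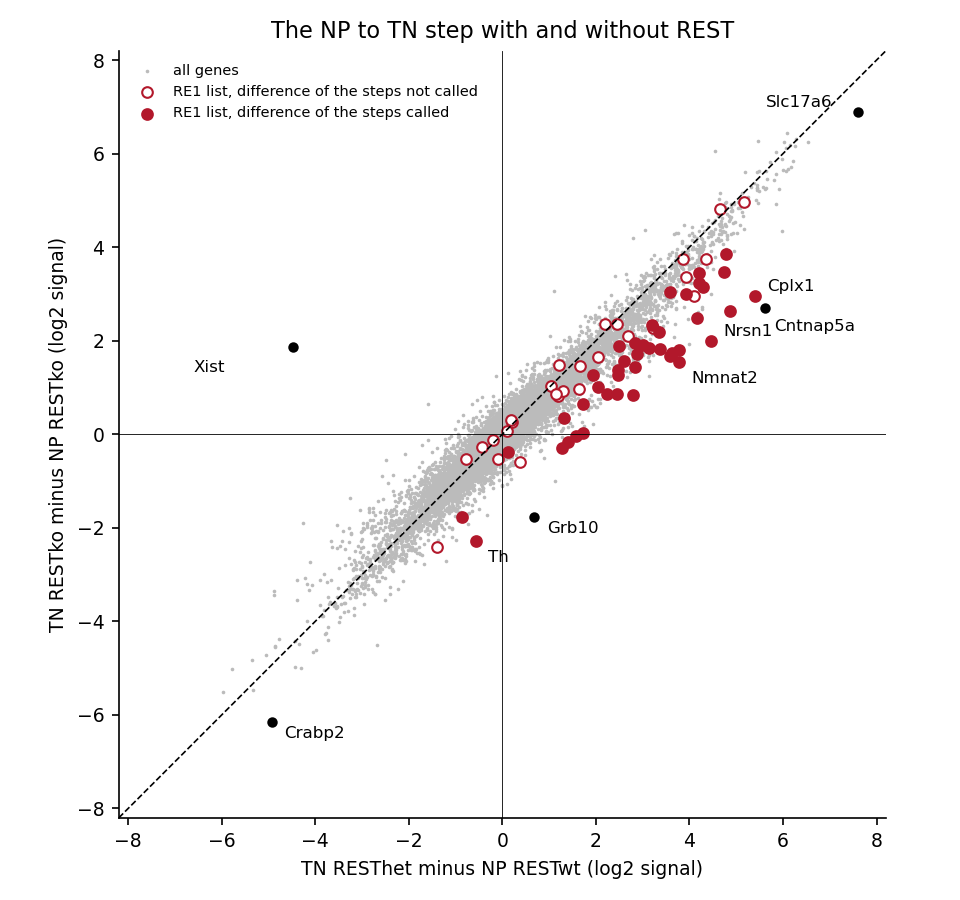
Each gene's difference TN minus NP (log2 signal) in RESTko cells (vertical axis) against the same in TN RESThet minus NP RESTwt (horizontal axis), all 19938 genes in grey and the 68 measured genes of the RE1 list in red, filled where the difference of the steps was called. The dashed line marks equal steps; the 41 called RE1 genes lie below it, Cntnap5a and Grb10 lie below it outside the list, and Xist lies far above it.

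The contrast arose at the progenitor end for most of these genes. At NP, 49 of the 68 were higher in RESTko than in RESTwt, 32 of them at least 2-fold, with a median of 0.87. None was lower at an adjusted or unadjusted p under 0.05 in limma. Of all genes, 8.03% were called in this comparison, 4.32% higher and 3.71% lower, and 0.647% with at least a 2-fold change, 0.461% higher and 0.186% lower. At TN, 2 were higher and 1 lower in RESTko than in RESThet, none of them 2-fold, with a median of 0.02. Of all genes, 1.16% were called there, 0.356% higher and 0.802% lower, and 0.115% with at least a 2-fold change, 0.0451% higher and 0.0702% lower. Cplx1, the SNARE regulator complexin, shows this. Its NP arrays read 7.52, 7.63 and 7.48 in RESTko and 5.27, 5.07 and 5.08 in RESTwt, and its TN arrays 10.68, 10.44 and 10.41 in RESTko and 10.51, 10.52 and 10.58 in RESThet. The progenitor groups were separated and the neuron groups overlapped, so the step was 2.97 in RESTko and 5.40 in the REST-carrying cells, a difference of −2.43 (SE 0.12, adjusted p = 9.4e-10).

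Nrsn1, a neuronal vesicle membrane protein, had a difference of −2.45 (SE 0.26, adjusted p = 2.46e-05), with NP arrays at 6.71, 7.10 and 7.26 in RESTko and 4.23, 4.39 and 5.0 in RESTwt. Nmnat2, an axonal enzyme of NAD synthesis, had −2.22, Syt4, a synaptotagmin, −2.22, and Ptprn, a protein of granule membranes, −1.98. Scg3, introduced above as barely rising, read 7.43, 6.85 and 7.42 in NP RESTwt and 10.06, 10.11 and 9.94 in TN RESThet. Its step was 2.80 in the REST-carrying cells and 0.83 in RESTko (difference −1.97, SE 0.18, adjusted p = 7.91e-06). These differences were called in the fit on all 18 arrays; of the 79 named genes, 52 were called, of which 31 lost their call beyond 1.5-fold and 7 on the 12 NP and TN arrays alone. Over all settings tried, the 1.5-fold test and the 12 arrays included, Apba2 was lost in 17, Pcsk1 in 11 and Cacna1a in 8. Snap25 was lost in 7, Cadps in 6, Cacng2 and Celf4 in 4 each and Unc13a in 3.

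Among the 41 genes, 34 rose in both steps and less so in RESTko. Another 4 rose in the REST-carrying step and were not called in RESTko: Chrnb2, Celsr3, Glra1 and Rundc3a. Chrnb2, a nicotinic receptor subunit, read 7.55, 7.44 and 7.25 at NP and 7.61, 7.38 and 7.35 at TN in RESTko, against 5.50, 5.16 and 5.82 in NP RESTwt and 7.25, 7.18 and 7.23 in TN RESThet. Its RESTko stages overlapped fully while the REST-carrying stages did not. Celsr3, a cadherin receptor of axon guidance, had 8.75, 8.76 and 8.60 at NP and 8.81, 8.64 and 8.55 at TN in RESTko, and 7.42, 6.66 and 7.02 in NP RESTwt. Th and Mapk11 fell in both steps and fell further in RESTko. Th read 6.61, 7.11 and 6.86 in NP RESTko, 5.27, 5.02 and 5.16 in NP RESTwt, and between 4.42 and 4.73 on all 6 TN arrays. Apba2 fell in RESTko and was not called in the other step.

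The 27 members whose difference of steps was not called include 18 that rose in both. Olfm3 rose by 4.97 and 5.16, Glra3 by 4.82 and 4.64, the sodium channel Scn2a by 3.75 and 3.86, Fgf14 by 2.36 and 2.46, and Bdnf, the neurotrophin, by 1.04 and 1.05, in RESTko and in the REST-carrying step in that order. For Olfm3 the NP arrays labelled RESTwt read 3.62, 3.38 and 3.16, overlapping those labelled RESTko. Gria2, the AMPA receptor subunit that limits calcium entry, had a difference of −1.12 (SE 0.35, adjusted p = 0.0911); it was called with a replicate block (adjusted p = 0.046) and without NP RESTwt array a (adjusted p = 0.00545).

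**Figure D4:**
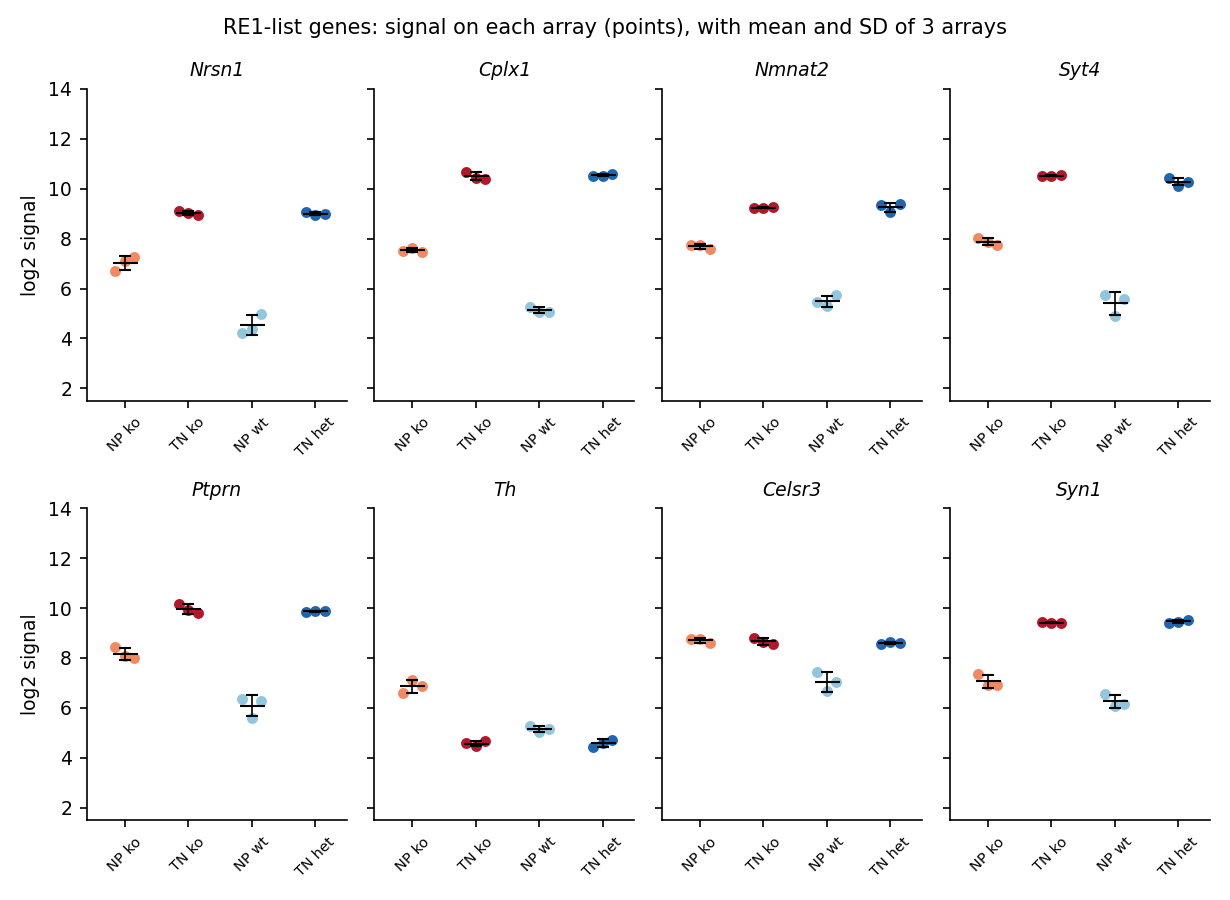
Log2 signal of 8 genes of the RE1 list on each array (points), with the mean and SD of 3 arrays, in NP and TN labelled RESTko and in NP RESTwt and TN RESThet. In each gene NP RESTko lies above NP RESTwt, while the TN groups lie close together; in Th the 6 TN arrays lie between 4.42 and 4.73.

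Promoter sequences of the list were examined for the core of the RE1 element. Windows of 250 bases before to 50 bases after the annotated start were taken from RefSeq (GRCm38.p6) and were found for 49 of the 68 genes and for 27025 genes in all. The full core, CAGCACC followed by any 2 bases and GGNCAG, on either strand, was present in 2 of the 49 (4.08%), Celsr3 and Syn1, and in 18 of all windows (0.0666%). An overlapping form, AGCACC followed by any 2 bases and GGACAG, was present in Gria2 alone (2.04%, against 16 windows or 0.0592% in all). The left part CAGCACC, which is contained in the first form, was found in 9 of the 49 (18.4%) and in 8.14% of all windows, and the right part GGACAG in 13 (26.5%) and 24.7%. The windows of Nrsn1, Cplx1 and Nmnat2, the 3 called members with the largest difference of the steps that have a window, held neither core form. The windows of Nrsn1, as the widest difference, and of Celsr3 and Syn1, as those with the core, are given 5′ to 3′ on the strand of the gene, with matches to the full core or to CAGCACC in capitals. A match describes the letters only, and its absence says nothing of RE1 elements elsewhere in the gene.
Nrsn1 (chr13:25269947-25270246, minus strand): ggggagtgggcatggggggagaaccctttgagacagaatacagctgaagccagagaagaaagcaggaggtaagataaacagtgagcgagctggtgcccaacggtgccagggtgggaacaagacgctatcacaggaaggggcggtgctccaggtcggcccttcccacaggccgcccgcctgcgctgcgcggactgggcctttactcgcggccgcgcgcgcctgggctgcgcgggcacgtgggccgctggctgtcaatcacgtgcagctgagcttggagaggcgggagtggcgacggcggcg
Celsr3 (chr9:108825795-108826094, plus strand): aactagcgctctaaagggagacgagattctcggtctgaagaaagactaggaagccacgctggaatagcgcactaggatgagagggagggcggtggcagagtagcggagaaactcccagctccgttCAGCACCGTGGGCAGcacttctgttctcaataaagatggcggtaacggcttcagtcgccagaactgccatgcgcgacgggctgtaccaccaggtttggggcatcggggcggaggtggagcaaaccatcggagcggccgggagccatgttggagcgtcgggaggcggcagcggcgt
Syn1 (chrX:20920869-20921168, minus strand): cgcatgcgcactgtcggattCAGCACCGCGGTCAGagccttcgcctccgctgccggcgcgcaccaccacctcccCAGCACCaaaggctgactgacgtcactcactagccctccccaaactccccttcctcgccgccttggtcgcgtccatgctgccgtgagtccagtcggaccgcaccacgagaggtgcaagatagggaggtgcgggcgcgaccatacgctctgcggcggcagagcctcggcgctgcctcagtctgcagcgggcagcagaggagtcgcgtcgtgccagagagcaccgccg

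Neuronal lists share members with the RE1 list, and their counts are given with and without them. The step was more negative in RESTko in 14 of 38 release genes (3 of 26 without RE1 members), 12 of 30 pan-neuronal genes (8 of 23), 11 of 37 channels (6 of 31) and 9 of 29 granule genes (3 of 20), and more positive in none of them, at an unadjusted p under 0.05 in limma as well. Of 33 glutamate genes 3 were more negative (3 of 32), and of 23 GABA and glycine genes 4 (3 of 21), with none more positive after adjustment; at an unadjusted p under 0.05 these counts were 13 against 0 and 10 against 1. Among guidance and adhesion genes 6 were more negative and 3 more positive, and among cholinergic and monoamine genes 5 and 1. None of the 41 cell cycle genes was called, with 1 gene in each direction at an unadjusted p under 0.05 and a median of −0.05. Of 27 matrix genes, 6 were more positive and none more negative, Dcn by 1.49 (adjusted p = 0.000977) and Lum by 1.39. For Dcn the NP level was lower in RESTko (4.64 ± 0.05) than in RESTwt (5.80 ± 0.24; SD, n = 3 each). Of 29 endoderm and epithelium genes, 6 were more positive and 1 more negative, the keratin Krt19 by 1.45 and Cldn6 by 1.55. Granule genes also differed at the neuron end. At TN, 6 of the 29 were lower in RESTko than in RESThet, 4 of them at least 2-fold, and 1 was higher. Of all genes, 0.802% were lower there, 0.0702% at least 2-fold, and 0.356% higher. All 6 were among the 20 granule genes outside the RE1 list. At NP, 2 of these 20 were higher and 1 lower in RESTko than in RESTwt.

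Outside the lists, the largest difference of the steps was that of Xist, the noncoding RNA that coats an inactive X chromosome. Its arrays read 5.77, 7.91 and 8.06 in NP RESTko, 8.88, 9.11 and 9.34 in TN RESTko, 7.85, 8.34 and 8.76 in NP RESTwt and 4.44, 3.69 and 3.39 in TN RESThet. The TN RESThet arrays stood apart from the other 3 groups, and the difference of the steps was 6.34 (SE 0.60, adjusted p = 8.91e-06). The labels do not say whether the RESThet cells differ from the others in their X chromosomes; a difference of that kind would enter every comparison with TN RESThet, and its part was not tested. Cntnap5a, a contactin-associated adhesion gene, had the most negative difference. It was at 2.99, 3.13 and 3.18 in NP RESTko and 3.15, 3.05 and 3.10 in NP RESTwt, but at 5.76, 5.81 and 5.82 in TN RESTko and 8.95, 8.70 and 8.53 in TN RESThet, so unlike the RE1 genes it differed at the neuron end (−2.93, SE 0.13). The imprinted gene Grb10, an adaptor that restrains growth factor signalling, read 10.28, 10.24 and 10.16 in NP RESTko and 8.06, 7.69 and 7.65 in NP RESTwt, with TN arrays between 8.34 and 8.55 in both. It fell by 1.76 in RESTko and rose by 0.69 in the REST-carrying step. Cdkn1c, another imprinted gene, fell by 2.71 in RESTko and 1.20 in the REST-carrying step (difference −1.52, adjusted p = 7.36e-05).

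Further genes with large differences behaved in several ways; the RESTko step is given before the REST-carrying step. The brain proteoglycan Bcan rose by 1.93 and 3.99. The membrane protein Mal2 rose by 3.06 and 1.09; NP RESTko was at 4.21, 4.69 and 4.21 and NP RESTwt at 6.63, 6.18 and 6.32. Cxcl15 fell by 1.91 and 4.26, and Alx1 by 0.89 and 2.58. Sprr1a rose by 0.65 in RESTko and fell by 1.60 in the other step, and Adh1 fell by 0.54 and 2.49. Rps3a1 fell by 1.37 and 3.25; this ribosomal protein gene has close copies in the genome, whose RNA its probes may also read. Olig3, of dorsal progenitors, fell by 4.51 and 2.68 (difference −1.82, adjusted p = 0.00417), and Nes by 3.30 and 2.22 (−1.08, adjusted p = 0.0249).

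Chromosome 8 was over-represented among the genes with a more positive step. It holds 961 of the 19938 genes (4.80%) but 74 of the 280 more positive (26.4%) and 14 of the 500 more negative (2.80%). Over its 561 genes of the brighter part of the array, the median of the RESTko step was −0.05, within the range of the other autosomes (−0.11 to 0.16), and that of the REST-carrying step −0.26 (−0.06 to 0.29 on the others). The median of RESTko minus RESTwt on this chromosome was −0.28 at NP (0.04 to 0.08 on the other autosomes) and −0.25 at ES (0.0 to 0.05). That of RESTko minus RESThet at TN was −0.06, within the range of the other autosomes (−0.09 to −0.0). Without the genes of chromosome 8, an alternative added after seeing the data, 664 differences of the steps were called, 30.3% of them more positive. The RESTko step itself was little touched, with 59.1% of its calls higher instead of 58.9%. Of the RE1 list, 4 measured genes lie on this chromosome.

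Both steps moved the same genes for the most part. Of the 2544 genes that rose at least 2-fold in RESTko, 2356 (92.6%) did so in the REST-carrying step, which is 83.7% of the 2816 of that step. Of 1886 that fell, 1614 (85.6%) also fell there, 83.0% of 1944, and 1 gene in each direction moved at least 2-fold the opposite way. On the other platform, 16553 genes were shared, and 9242 of its 18194 genes were called in the mixed-strain step (50.8%; 21.7% higher and 29.1% lower), 29.7% with at least a 2-fold change (13.5% and 16.2%). There 1627 of 2337 rising genes (69.6%) and 1360 of 1750 falling genes (77.7%) of the RESTko step moved at least 2-fold the same way, and 6 and 2 the opposite way. Slc17a6 rose by 6.88 and Crabp2 fell by 6.96 in the mixed strain, and of the RE1 list 52 of 68 rose and 3 fell there, with a median of 3.34. The platforms differ in probes and in the number of arrays, so these values are set side by side without a test.

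Probe sets for microRNA genes showed 2 loci moving as blocks. They were picked after the values were seen and are described without a test, and such probe sets read the precursor or the host transcript rather than the mature microRNA. The interval from Meg3 to Mir410 (chr12:109540996-109743795, GRCm38.p6) is imprinted and transcribed from the maternal chromosome. Of 59 microRNA genes annotated there, 40 were measured, all 40 were higher at TN, and in all 40 the 3 TN arrays lay above the 3 NP arrays, where 73.9% of all genes had groups that did not overlap in one direction or the other. The differences ran from 0.75 (Mir673) to 4.12 (Mir539) with a median of 2.56. Mir539 read 4.33, 4.18 and 4.16 at NP and 8.53, 8.43 and 8.08 at TN, and Mir136 2.87, 2.81 and 2.81 at NP and 6.73, 6.94 and 6.62 at TN. The noncoding host genes rose too, Meg3 by 2.29, to 12.39, 12.33 and 12.31 at TN, and Rian by 2.93. Among genes known to be expressed from the paternal chromosome, Rtl1, inside the interval, rose by 1.58 (adjusted p = 1.86e-10 in limma). Of those that flank it, Dio3 rose by 0.60 (adjusted p = 0.00122), and Dlk1 was not called (−0.27, adjusted p = 0.125).

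The Mir17 cluster (chr14:115043671-115046728), a promoter of proliferation, went the other way. Of 6 annotated genes 5 were measured, and all 5 were lower at TN with no overlap, from −3.26 (Mir19a) to −1.08 (Mir17), with a median of −2.73. Mir19a read 6.07, 6.07 and 5.79 at NP and 2.47, 2.89 and 2.79 at TN, and the median level of the cluster was 7.96 in ES RESTko cells, 6.34 at NP and 3.88 at TN. The host transcript Mir17hg fell by 1.82. In the REST-carrying step the medians were 2.62 for the interval on chromosome 12 and −2.35 for the Mir17 cluster, and the difference of the steps was called for none of the 40 or 5. Single loci with known roles in neurons were not uniform: Mir137 rose by 3.14 and Mir153 by 1.23, Mir9-1 rose by 0.79 and Mir9-3 fell by 1.39, and Mir124a-2, whose mature product REST is known to repress, was at 6.16, 6.08 and 6.07 at NP and 6.10, 6.21 and 6.18 at TN, with no call (0.06, adjusted p = 0.589). Its difference of the steps was called (−0.62, adjusted p = 0.012 in limma): it rose by 0.68 in the REST-carrying step, and at NP it was higher in RESTko than in RESTwt by 0.54 (adjusted p = 0.00122).

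The mature sequences of the members described, from RefSeq (GRCm38.p6), are shown 5′ to 3′ with the seed, bases 2 to 8, in capitals, because the seed determines which messages a microRNA pairs with. All 40 measured genes of the interval matched the table, with 76 mature sequences, and all 5 of the cluster, with 9. In the falling cluster, miR-17-5p and miR-20a-5p share one seed and miR-19a-3p and miR-19b-3p another, and in the rising interval miR-379-3p and miR-411-3p share one, as do miR-376b-5p and miR-376c-5p, which are not shown.
miR-17-5p: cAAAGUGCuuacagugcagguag
miR-20a-5p: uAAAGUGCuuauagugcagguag
miR-19a-3p: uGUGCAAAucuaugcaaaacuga
miR-19b-3p: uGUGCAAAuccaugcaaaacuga
miR-539-5p: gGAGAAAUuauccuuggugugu
miR-136-5p: aCUCCAUUuguuuugaugaugg
miR-379-3p: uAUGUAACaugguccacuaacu
miR-411-3p: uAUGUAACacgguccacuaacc

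**Figure D5:**
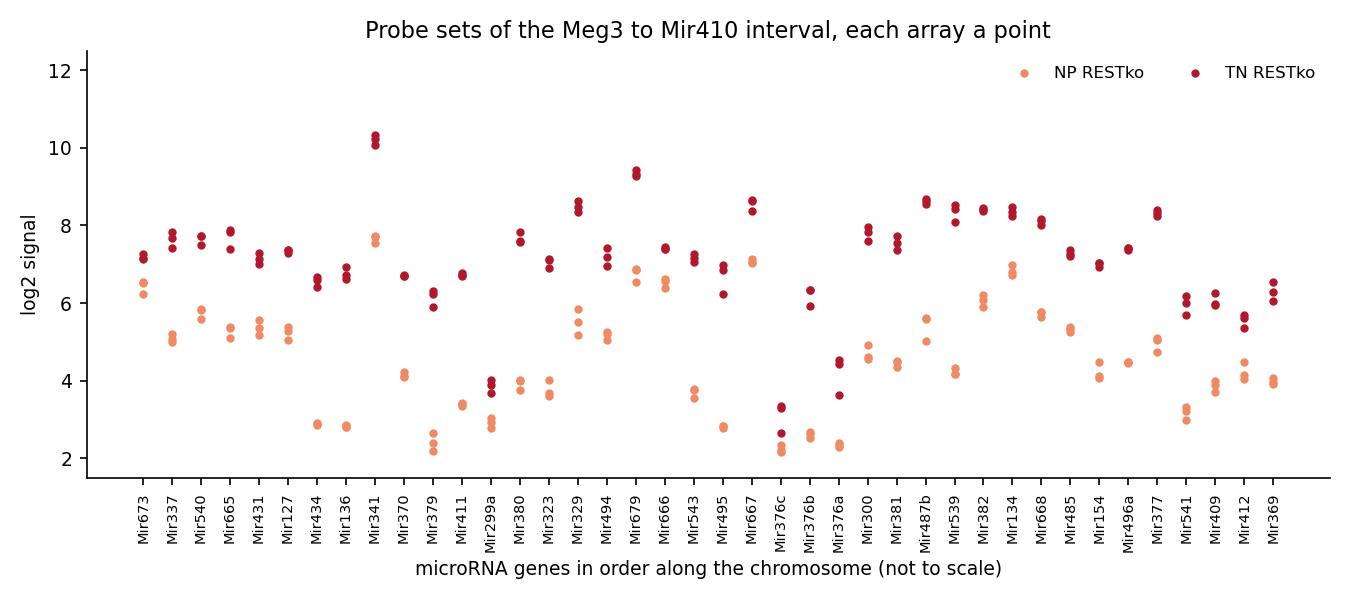
Log2 signal of the 40 measured microRNA genes between Meg3 and Mir410, in their order along chromosome 12 (horizontal axis, not to scale), each point 1 array of NP RESTko or TN RESTko. In every gene the 3 TN points lie above the 3 NP points, with the widest gap at Mir539.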

How the data were processed

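The deposited files hold log2 probe-set signals from Affymetrix arrays of total RNA, one table for 18 arrays and another for 6. Per the submitters' processing notes the authors used oligo 1.14.0; how background was corrected and signals normalized is not given in the sources used here. No further normalization was applied to the deposited values. The number of arrays limits the precision, and the RESTko step had a median SE of 0.102. Probe sets were named through GEO's platform annotation, and a check of the symbols against RefSeq (GRCm38.p6) changed none. Of 35556 on the larger platform, 21789 had 1 symbol, 1621 several and 12146 none; a gene was its probe set with the highest mean, which gave 19938 genes (18194 on the other platform). The platforms were never fitted together.

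limma 3.58.1 in R 4.3.3 (lmFit, eBayes; two-sided) was fitted to all 18 arrays with a mean for each of 6 groups, with Benjamini-Hochberg adjustment over all 19938 genes. The difference of the steps is an interaction contrast of 4 groups. Summaries and figures used Python 3.11.15. Scripts were tested on simulated data. The arrays, the 28 gene lists and the rules were chosen with earlier results of these data known, so patterns over a list are descriptions. Named genes are the 12 with the largest difference in each direction among called genes whose groups do not overlap, the 8 in each direction for the difference of the steps, up to 4 called members per list and a fixed set of markers; predicted genes, olfactory-type receptors, immune receptor segments and small RNAs were left out. Exceptions within a list, other members given as examples and the microRNA loci were named after their values were seen.

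The letters a, b and c may pair NP with TN arrays, but the labels do not say so. For this reason no block was used in the main fit. In RESTko the same-letter correlation of deviations from the group means was 0.146, 0.147 and 0.08. Other settings were a replicate block, only the arrays compared, quantile normalization, median centring, leaving out the dimmest 30% of genes, a mean over probes, every probe, array weights, a test beyond 1.5-fold (treat), each array left out in turn, and, added after seeing the data, omission of chromosome 8.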

Additional observations from a re-analysis of the deposited data

Results flagged for a closer look

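Among the genes whose step differed between the genotype labels by the interaction test of limma (780 genes) and whose differences between single arrays did not overlap, the 8 named genes with the largest difference in each direction were singled out. The difference, RESTko minus REST-carrying, was 6.34 for Xist, 2.35 for Cxcl15, 2.25 for Sprr1a, 1.96 for Mal2, 1.94 for Adh1, 1.88 for Rps3a1, 1.68 for Alx1 and 1.55 for Cldn6. In the other direction it was −2.93 for Cntnap5a, −2.45 for Nrsn1, −2.45 for Grb10, −2.43 for Cplx1, −2.22 for Nmnat2, −2.22 for Syt4, −2.06 for Bcan and −1.98 for Ptprn. Of these, Nrsn1, Cplx1, Nmnat2, Syt4 and Ptprn are on the RE1 list. TN RESThet minus NP RESTwt changes the genotype label along the step, so a difference between RESThet and RESTwt cells and a difference between the steps cannot be told apart here. Groups of 3 arrays are too small for a search for single outlying arrays.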

How the results depend on the processing

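For the RESTko step, the count of 14147 genes (8328 higher, 5819 lower) was 14085 with a replicate block, 13301 to 13700 without single arrays (higher 7653 to 8146, lower 5515 to 5692), 22461 (13509 and 8952) over every probe, of which there are more, and 5500 (3069 and 2431) beyond 1.5-fold; without the dimmest 30%, 5473 were higher. Hand1, Kdr, Myrf, Scg3, Tubb3 and Xbp1 were not called beyond 1.5-fold, and in the other settings run the genes named by the fixed rule kept their call in this step, except that Rest gained one under both scalings. In the REST-carrying step the counts were 23578 (14117 and 9461) over every probe, 5854 (3399 and 2455) beyond 1.5-fold, and 5612 higher without the dimmest 30%; with a replicate block 14532, and without single arrays 13787 to 14173.

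The difference of the steps was the least stable count. Against 780 (280 and 500) it was 757 (266 and 491) with a replicate block, 436 (144 and 292) on the 12 NP and TN arrays alone, 45 (8 and 37) beyond 1.5-fold, and 498 to 928 without single arrays (159 to 295 more positive, 331 to 633 more negative). It fell to 513 without NP RESTko array a, 498 without NP RESTwt array b and 503 without TN RESTko array c, and without TN RESThet array c 173 were more positive. After median centring 328 were more negative. No called value of the genes checked changed its direction in these settings. Those were the genes named by the fixed rule and, for the difference of the steps, the RE1 list. Exceptions and other members given as examples were not checked. In the mixed strain 8193 to 8694 genes were called without single arrays. Each TN RESTko array correlated best with its own letter at NP, a hint from the data only. In the REST-carrying step the same-letter correlations were −0.104, −0.007 and 0.024, and no TN RESThet array correlated best with its own letter. A fit with fewer arrays has less power; other causes were not tested.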
